A study of Mus musculus with 12 samples.

Results

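The microvillus cytoskeleton and protocadherin genes are 10 of the 54532 genes counted in the colon of mice with dextran sodium sulfate (DSS) colitis. They were taken by gene symbol and comprise Vil1, Ezr, Eps8, Myo1a, Pls1, Espn, Cdhr2, Cdhr5, Myo7b and Ush1c. All 10 were among the 16904 genes that passed a filter on low counts, with 574 reads or more in every library. The genes were chosen by their function and by their fold changes between the groups of these same libraries, so their differences between groups are given below as a description and and no support is drawn from their number.

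RNA-Seq was run on colonic tissue of 12 male, wild-type C57BL/6J mice that were 5 weeks old, 3 mice per group. DSS is a polymer given in drinking water that damages the lining of the colon. Control mice were not given DSS, and model mice were given DSS alone. The Rhy group received DSS together with rhynchophylline, an oxindole alkaloid of Uncaria plants. Mice were dosed with Rhy at 2, 4 or 8 mg/kg, and which of these doses the sequenced mice received is not named. The DXM group received DSS together with the glucocorticoid dexamethasone at 4 mg/kg. The libraries are of bulk colonic tissue, and markers of epithelium, smooth muscle, fibroblasts and leukocytes were found in every library. Which layers of the colon wall were taken is not given in the sources used here.

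Microvilli are finger-like protrusions of the apical membrane of enterocytes and colonocytes, each built around a core of parallel actin filaments. Vil1 (villin), Espn (espin) and Pls1 (plastin 1, also called fimbrin) bundle these filaments, and Eps8 caps and bundles actin at the microvillus tip. Ezr (ezrin) and Myo1a (a class I myosin) tie the actin core to the plasma membrane. At the tips, the protocadherins Cdhr2 and Cdhr5 bind each other across neighbouring microvilli and pack them into an ordered brush border, and the scaffold Ush1c (harmonin) and the motor Myo7b hold the protocadherins inside the cell in an intermicrovillar adhesion complex.

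Total counts ranged from 14346478 to 17749716 per library. Markers of epithelium were abundant in every library, the 8 pan-epithelial markers summing to 3614 to 7612 CPM (counts relative to library size, scaled between libraries by the TMM method), and none of them had a count of 0. The libraries of model mice 1 and 2 were much more alike than any other pair, with a dispersion of 0.00201 against 0.0596 to 0.343 in the other 65 pairs, and with these counted as 1 library the medians given below were -0.88 for model against control, 0.34 for Rhy against model and -0.31 for DXM against model. Hoxb13, a Hox gene of the distal colon, was at 0.165 CPM in control mouse 3, 1.49 in model mouse 3 and 0 in Rhy mouse 1, and at 72.0 to 316 CPM in the other 9 libraries. DXM mouse 1 stood apart from the other DXM mice in most genes described here. The labels number the libraries 1 to 3 in each group, and these are described here as separate mice. Whether model libraries 1 and 2 come from separate mice is not settled by the labels. If they do not, the SDs and separations of the model group rest on fewer than 3 mice. No sequencing batch is given.

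The promoters of Vil1, Ezr and Cdhr2 are shown because these genes had, respectively, the pattern most like that of the other members, the pattern least like it, and the lowest level in DXM mice relative to control mice. Each line gives the 250 bases before the RefSeq start on GRCm38.p6, 5′ to 3′ on the gene's strand, for Vil1 chr1:74409134-74409383 (plus strand), Ezr chr17:6782781-6783030 (minus strand) and Cdhr2 chr13:54701213-54701462 (plus strand). Capitals mark matches to the motifs searched.
Vil1: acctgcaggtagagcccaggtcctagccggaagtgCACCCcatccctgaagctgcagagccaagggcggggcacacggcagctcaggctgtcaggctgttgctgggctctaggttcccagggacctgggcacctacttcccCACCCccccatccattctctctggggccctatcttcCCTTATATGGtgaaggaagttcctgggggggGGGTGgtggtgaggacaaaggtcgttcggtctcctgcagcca
Ezr: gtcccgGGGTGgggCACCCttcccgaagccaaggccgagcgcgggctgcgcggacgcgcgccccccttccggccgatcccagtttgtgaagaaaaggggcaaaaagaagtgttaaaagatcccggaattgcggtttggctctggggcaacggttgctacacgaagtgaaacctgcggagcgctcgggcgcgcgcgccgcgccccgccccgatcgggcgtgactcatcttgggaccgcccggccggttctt
Cdhr2: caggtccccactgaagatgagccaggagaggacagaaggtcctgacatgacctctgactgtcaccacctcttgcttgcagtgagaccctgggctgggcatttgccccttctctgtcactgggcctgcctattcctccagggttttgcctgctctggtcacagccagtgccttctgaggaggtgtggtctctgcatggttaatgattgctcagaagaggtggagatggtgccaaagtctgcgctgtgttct
The motifs were the HNF4 element CAAAGTCCA, the CDX element CAATAAA, the KLF element CACCC, the TATA box TATAAA and the CArG box of serum response factor, each read on both strands over 250 bases before to 50 bases after the start; no match in a member overlapped another.
RefSeq windows were matched for 8 of the 10 members, with 3 windows for Espn, and Eps8 and Myo7b were not analysed here. The CArG box was found in 1.63% of all 32817 windows and, among the members, only in Vil1, where it began 73 bases before the start. The KLF element was in 57.5% of all windows and in 7 of the 10 member windows, belonging to Vil1, Ezr, Myo1a, Pls1, Espn and Ush1c. None of the member windows held the HNF4 element (0.475% of all windows), the CDX element (4.60%) or the TATA box (13.6%). The GC content of the member windows was 55.0 to 68.0%, highest in Ezr, against a median of 52.7% over all windows. A match is a description of letters, and no binding was measured.

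Between genes, levels were compared in FPKM, reads per length of the gene. In control colon Cdhr5 was the most abundant of the 10, at 490.0 ± 148 FPKM (SD, n = 3), and its 3 libraries lay above every library of Ezr. Ezr at 286 ± 49.7, Vil1 at 284 ± 60.6, Cdhr2 at 246 ± 49.9 and Myo1a at 209 ± 41.7 FPKM followed, and each overlapped its neighbour in this order. A clear step separated these 5 genes from Pls1 (82.9 ± 19.8), Ush1c (67.9 ± 18.2) and Myo7b (63.2 ± 14.8), which also overlapped each other. Eps8 and Espn were lowest, at 23.2 ± 7.09 and 21.6 ± 10.7 FPKM, and overlapped. Their annotated lengths, 12355 and 8272 bp, were the longest of the 10, against 2739 to 6621 bp in the others. In CPM, which are not divided by length, the control mean of Eps8 (284) was above that of Ush1c (259). The place of a gene in this order therefore depends on its annotated length, and the lengths of the transcripts present were not measured. The order by group mean was the same in model colon. By group mean in both the Rhy and the DXM groups, Ezr took the first place from Cdhr5 and Myo1a passed Cdhr2. The places from the sixth to the last stayed as in control colon. Single libraries differed from these means: Cdhr5 stayed above Ezr in Rhy mouse 1 (410 against 241 FPKM) and DXM mouse 1 (260 against 241). Cdhr2 stayed above Myo1a in Rhy mice 1 and 2 (178 against 148 and 119 against 115 FPKM).

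**Figure D1:**
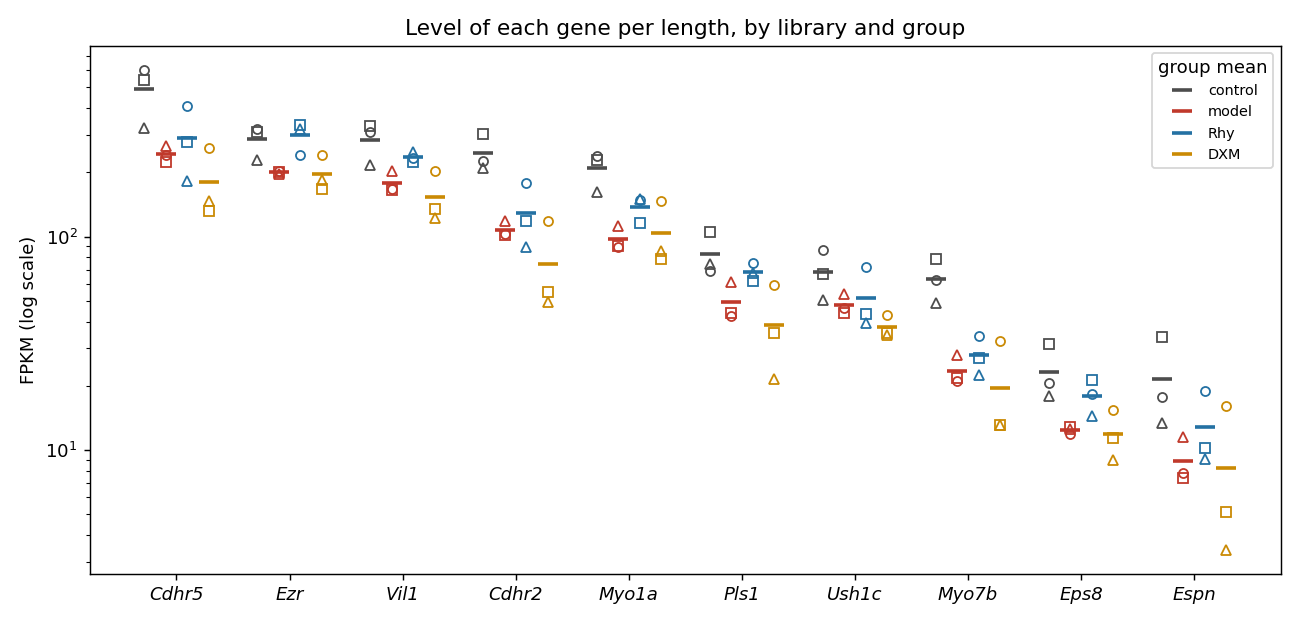
FPKM (log scale) of the 10 genes in the 12 libraries, ordered by their mean in control colon; open symbols are mice 1 to 3 of each group and short bars are group means. Cdhr5 to Myo1a form the upper tier, Pls1, Ush1c and Myo7b the middle and Eps8 and Espn the lowest, and the control mean is the highest in every gene but Ezr.

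The first question of the design is how DSS colitis changed these genes. All 10 were lower in model than in control colon, with a median log2 fold change of -0.90 against 0.01 over all genes tested. Differences ran from -1.37 for Myo7b to -0.45 for Ezr and Ush1c. In 9 of the 10 genes every model library lay under every control library, which held for 6.61% of all genes (10.4% were separated upward); Ush1c was the exception. As the members were chosen on this contrast, no p is given for them. By the quasi-likelihood test of edgeR with Benjamini-Hochberg adjustment, 0% of the 16904 genes passed at 0.05, while 1626 had an unadjusted p under 0.05 (5.11% of genes higher and 4.51% lower). DESeq2 called 46 genes on all libraries and 167 on the 2 groups alone. In bulk tissue, fewer epithelial cells and less RNA of these genes per cell cannot be told apart.

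**Figure D2:**
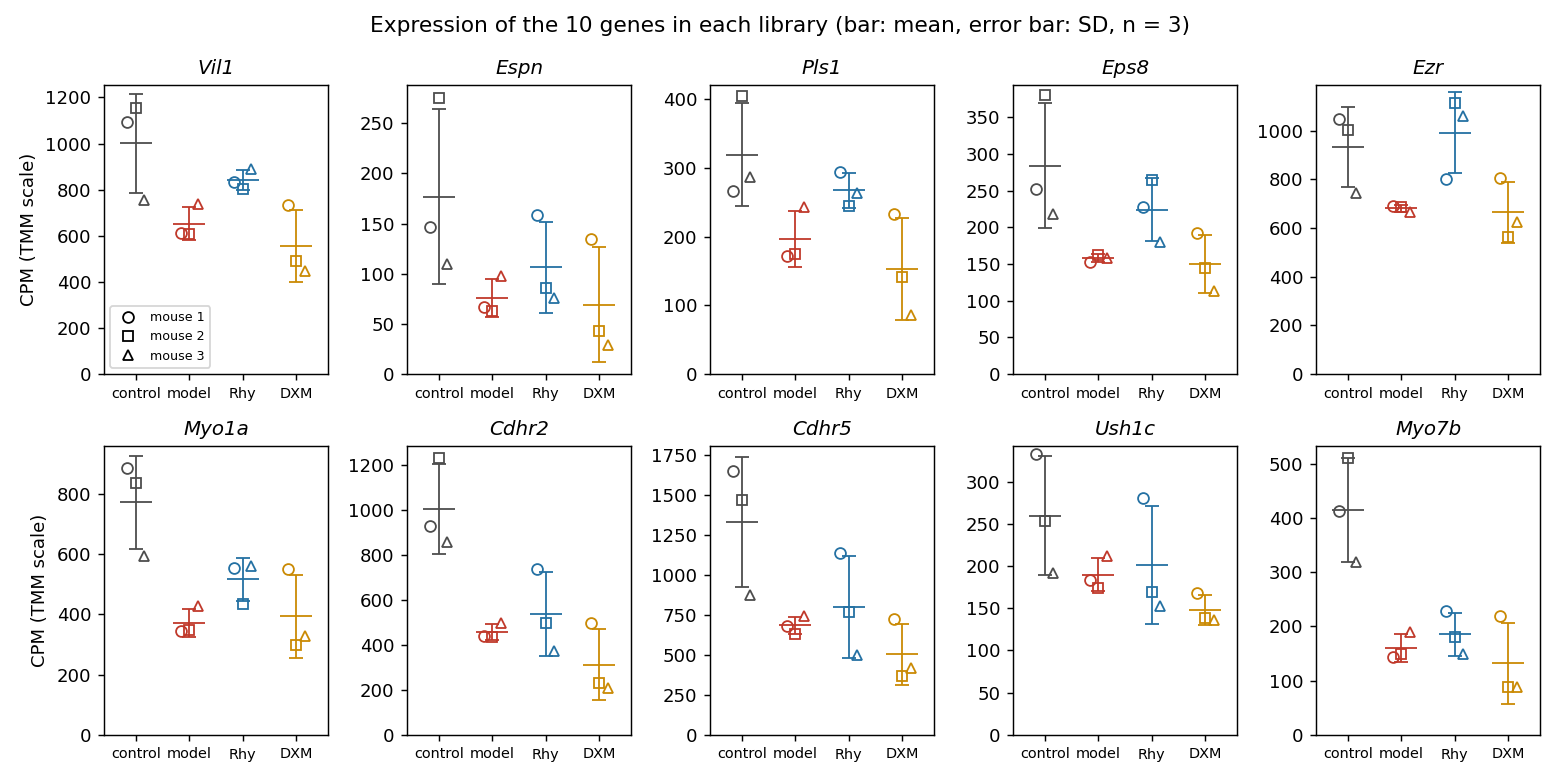
CPM of each gene in every library on the TMM scale, with a separate linear axis from 0 in each panel; symbols are mice, horizontal bars group means and error bars the SD of 3 mice. Model libraries lie under all control libraries in every panel but Ush1c, and DXM mouse 1 is the highest DXM library in all 10 panels.

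Vil1 (ENSMUSG00000026175, chr1:74409376-74435559 on the plus strand, mm10) encodes villin, which bundles actin and can also sever it, and serves as a general marker of intestinal epithelium. Its expression was 1092, 1153 and 757 CPM in control mice 1 to 3 and 613, 607 and 737 in model mice 1 to 3. It was 835, 801 and 890.2 CPM in the Rhy mice and 735, 489.6 and 446 in the DXM mice. All 3 Rhy mice were above all 3 model mice, while the DXM and model libraries overlapped. The log2 fold changes were -0.62 (SE 0.24) for model against control, 0.37 (SE 0.24) for Rhy against model and -0.23 (SE 0.24) for DXM against model.

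Espn (chr4:152120331-152152371 on the minus strand) encodes espin, a bundler that also lengthens actin protrusions in sensory cells. Control mice had 146, 275 and 109.6 CPM and model mice 66.4, 63.2 and 97.4. The Rhy values were 159, 85.6 and 75.5 and the DXM values 135, 43.3 and 29.1 CPM. Espn was the most scattered of the 10 genes, with control mouse 2 far above the other control mice and DXM mouse 1 far above the other DXM mice. Its log2 fold change was -1.23 (SE 0.54) for model against control, 0.49 (SE 0.53) for Rhy against model and -0.13 (SE 0.53) for DXM against model, each with the largest SE among the 10 genes.

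Pls1 (chr9:95752642-95845311 on the minus strand) encodes the plastin of intestinal microvilli, also found in the stereocilia of the inner ear. Its level was 266, 405 and 287 CPM in control and 171, 175 and 244 in model mice, a narrow gap between control mouse 1 and model mouse 3. In Rhy mice it was 295, 245 and 264 CPM, all above the model libraries but by a still smaller margin, and in DXM mice 233, 141 and 85.8. The log2 fold changes were -0.70 (SE 0.32), 0.44 (SE 0.32) and -0.36 (SE 0.32) for model against control, Rhy against model and DXM against model.

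Eps8 (chr6:137477245-137654876 on the minus strand) encodes a substrate of the EGF receptor kinase that caps the growing ends of actin filaments. Control mice had 253, 381 and 219 CPM and model mice 152, 163 and 159, the model libraries lying close together. The Rhy libraries, at 228, 265 and 179.7 CPM, were all above the model libraries, and the DXM libraries, at 193, 145 and 114, lay on both sides of them. Fold changes on the log2 scale were -0.85 (SE 0.26) for model against control, 0.51 (SE 0.26) for Rhy against model and -0.07 (SE 0.26) for DXM against model.

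Ezr (chr17:6738041-6782784 on the minus strand) encodes ezrin, which crosslinks actin to membrane proteins and is the main ERM family protein of enterocytes. Its values were 1048, 1002 and 745 CPM in control mice and 691, 685 and 664 in model mice, the model libraries being nearly equal. In Rhy mice they were 801, 1111 and 1058 and in DXM mice 805, 562 and 623 CPM. Rhy mice 2 and 3 exceeded every control mouse as well as every model mouse, which no other member did. The log2 fold change was -0.45 (SE 0.23) for model against control, 0.54 (SE 0.23) for Rhy against model, the largest of the 10 for that comparison, and -0.04 (SE 0.23) for DXM against model.

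Myo1a (chr10:127705170-127720940 on the plus strand) encodes the brush border myosin that bridges the actin core and the lateral membrane. It was at 884, 835 and 595 CPM in control and 343, 346 and 426 CPM in model mice. Rhy mice had 554, 434 and 562 CPM, above the model libraries and under the control libraries in all 3 mice. DXM mice had 551, 299 and 329 CPM, 2 of them under and 1 above the model libraries. The log2 fold changes were -1.05 (SE 0.27), 0.47 (SE 0.27) and 0.08 (SE 0.26) in the same order of comparisons, and Myo1a was the only member with a DXM mean above the model mean.

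The protocadherin Cdhr2 (chr13:54701461-54736662 on the plus strand) was at 927, 1233 and 856 CPM in control and 439, 435 and 499 in model mice. Its level was 740.2, 496 and 373 CPM in Rhy mice and 497, 232 and 210.2 in DXM mice. Rhy mouse 1 was above the model libraries and Rhy mouse 3 under them, and DXM mice 2 and 3 were far under them. The partner protocadherin Cdhr5 (chr7:141269083-141276786 on the minus strand) was at 1648, 1467 and 875 CPM in control and 679.7, 632 and 741 in model mice. It reached 1133, 769.5 and 499 CPM in Rhy mice and 722, 369 and 415 in DXM mice, with the same order of mice within the Rhy group as Cdhr2. For model against control the log2 fold change was -1.14 (SE 0.35) in Cdhr2 and -0.96 (SE 0.36) in Cdhr5. For Rhy against model it was 0.23 (SE 0.35) and 0.23 (SE 0.35), and for DXM against model -0.55 (SE 0.35) and -0.45 (SE 0.35), the pair being the lowest of the 10 in that comparison.

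Myo7b (chr18:31959234-32036961 on the minus strand), the motor of the adhesion complex, had 413, 511 and 319 CPM in control and 143, 149 and 189.6 in model mice, and its model mean was 38.8% of the control mean. The Rhy libraries, at 228, 181 and 149 CPM, and the DXM libraries, at 219, 88.8 and 88.9, all lay under the lowest control library. Ush1c (chr7:46195350-46238503 on the minus strand), the scaffold of the complex and the gene of a form of Usher syndrome in humans, had 332, 254 and 192 CPM in control and 184, 174 and 212 in model mice. Control mouse 3 lay within the range of the model mice, which makes Ush1c the member without a gap between these groups. Its levels were 281, 169.7 and 152 CPM in Rhy and 168, 139 and 136 in DXM mice, and it was the only member with every DXM library under every model library. The log2 fold changes of Myo7b were -1.37 (SE 0.35), 0.21 (SE 0.34) and -0.28 (SE 0.34), and those of Ush1c -0.45 (SE 0.26), 0.08 (SE 0.26) and -0.36 (SE 0.26), for model against control, Rhy against model and DXM against model.

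The second question is what Rhy did in colitis. All 10 genes had a higher mean in Rhy than in model colon, with a median log2 fold change of 0.41 against -0.01 over all genes. In 5 of them, Vil1, Ezr, Eps8, Myo1a and Pls1, the Rhy libraries all lay above the model libraries, where 5.51% of all genes did so and 6.02% were separated downward. These 5 are all genes of the actin core and its link to the membrane, with fold changes of 0.37 to 0.54. Espn, the other actin core gene, had 0.49 with overlapping libraries, and 0.09 without Rhy mouse 1. The 4 adhesion complex genes had 0.08 to 0.23, and the difference between these sets of genes was not tested. Over all genes, 0% passed an adjusted p of 0.05 in edgeR's test, with 628 at an unadjusted p under 0.05 (1.74% of genes higher and 1.98% lower). DESeq2 called 5 genes on all libraries and 44 on the 2 groups alone. Without Rhy mouse 1 the fold changes of Cdhr2, Cdhr5 and Ush1c turned to -0.08, -0.11 and -0.24, and the median became 0.23.

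The third question is what DXM did in colitis. In DXM against model, 9 of the 10 genes had a lower mean and Myo1a a higher one, with a median log2 fold change of -0.26 against -0.01 over all genes. Ush1c was the only member whose DXM libraries all lay under the model libraries, and no member was separated upward, beside 12.2% of all genes separated downward and 10.4% upward. Over all genes, edgeR's test called 0% at an adjusted p of 0.05, and 1300 genes had an unadjusted p under 0.05 (4.89% of all genes in the higher and 2.8% in the lower direction). DESeq2 called 51 genes on all libraries and 590 on the 2 groups alone. The size of the median depended on single libraries: it was -0.64 without DXM mouse 1, where Myo1a turned to -0.24, and -0.11 without DXM mouse 2, -0.068 without DXM mouse 3 and -0.12 without model mouse 3. The 3 comparisons share the model libraries and are not independent of each other.

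**Figure D3:**
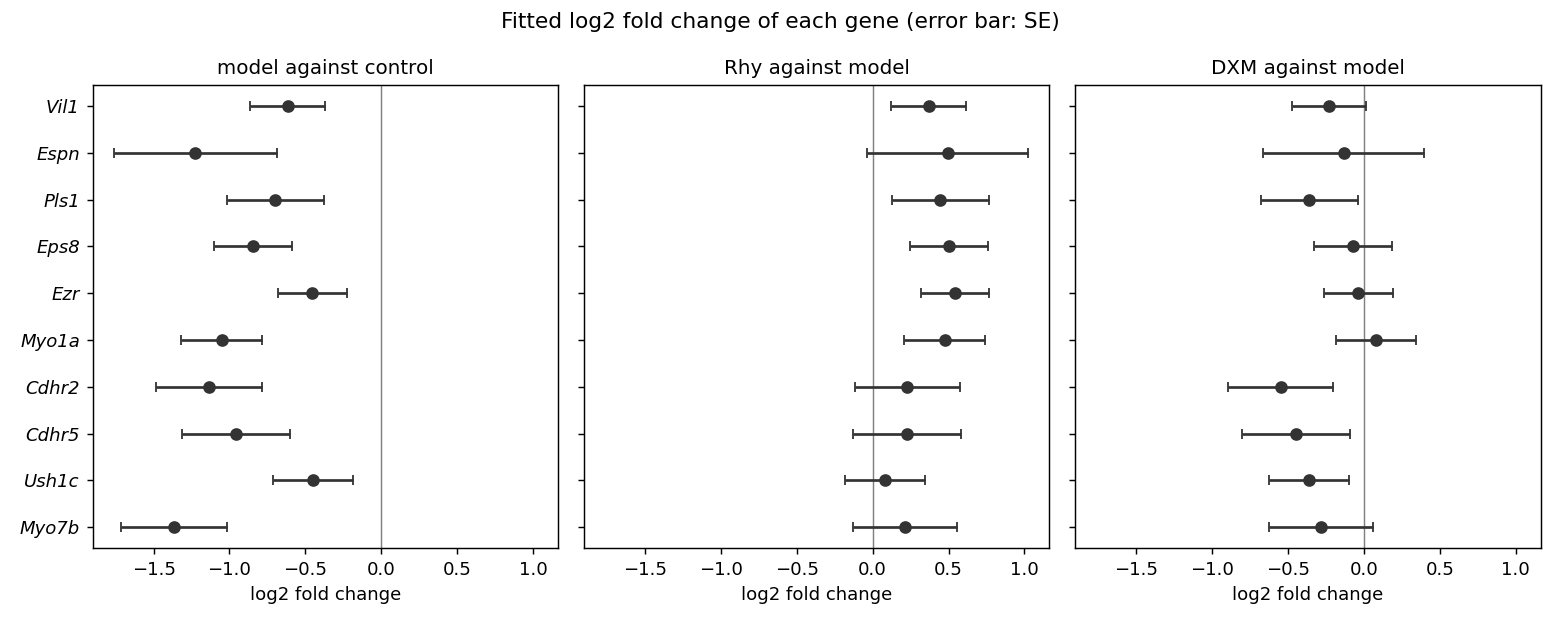
Fitted log2 fold change of each gene with its SE for model against control, Rhy against model and DXM against model, on a shared axis; the vertical line marks 0. All 10 points lie under 0 in the first panel and above 0 in the second, where the 4 adhesion complex genes at the foot of the panel are nearest to 0, and 9 of 10 lie under 0 in the third.

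Set beside the control group, with which the model comparison shares its libraries, the Rhy group had a median log2 fold change of -0.47 and the DXM group of -1.01 over the 10 genes. With libraries scaled to 8 pan-epithelial markers in place of TMM these medians were -0.090 and -0.40, with scaling to 7 mature colonocyte markers -0.064 and -0.095, and over the 9 libraries with Hoxb13 above 5 CPM the Rhy median was -0.84. In Rhy colon Ezr was close to its control mean at 0.09 (SE 0.23), and Vil1 at -0.25 (SE 0.24) and Pls1 at -0.25 (SE 0.32) were nearer to it than the remaining members. Lowest relative to control were Myo7b at -1.16 (SE 0.35) and Cdhr2 at -0.91 (SE 0.35). In DXM colon the same pair was lowest, with Cdhr2 at -1.68 (SE 0.35) and Myo7b at -1.65 (SE 0.35), followed by Cdhr5 at -1.41 (SE 0.36), and Ezr was again the nearest to control at -0.49 (SE 0.23). Without DXM mouse 1 the DXM median was -1.39.

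The makeup of the set was examined as each gene's share of the summed FPKM of the 10, a quantity that does not depend on how libraries are scaled to each other. Cdhr2, Cdhr5, Myo7b and Ush1c together took 48.7 ± 1.56% (SD, n = 3) in control colon, with libraries from 47.0 to 50.1%. In model colon they took 43.5 ± 0.59%, from 42.9 to 44.0%, and in DXM colon 37.2 ± 2.47%, from 35.2 to 40.0%. The Rhy libraries spread widely, from 29.1% in mouse 3 to 48.6% in mouse 1, with a mean of 38.5 ± 9.75%. The share of Ezr was lowest in control colon, going from 16.2 ± 0.92% in control to 20.8 ± 1.96% in model, 24.0 ± 6.16% in Rhy and 24.6 ± 3.15% in DXM colon, and its control libraries, at 15.2 to 17.0%, lay under its model libraries, at 18.6 to 22.1%. Vil1 took 16.0 ± 0.22% in control and 18.4 ± 0.62% in model colon, again without overlap, while Myo7b took 3.56 ± 0.33% and 2.42 ± 0.20%. Within the adhesion complex the genes were not alike, since the share of Ush1c was higher in model (4.94 ± 0.14%) than in control colon (3.83 ± 0.57%).

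**Figure D4:**
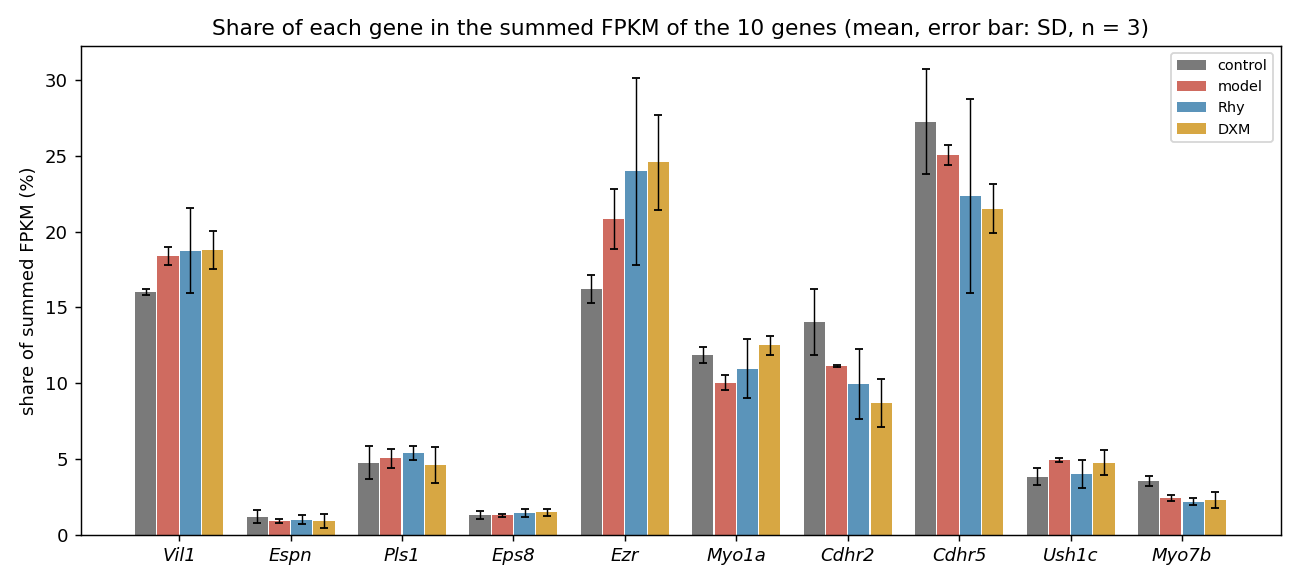
Share of each gene in the summed FPKM of the 10 genes, in percent, as the mean of 3 mice with the SD as error bar, by group; the bars start at 0. The shares of Cdhr2, Cdhr5 and Myo7b are highest in control colon, and those of Ezr and Vil1 are lowest there.

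The members were set beside markers of the cell types a colon piece can hold. The 8 pan-epithelial markers, among them Epcam and Cldn7, summed to 6621 ± 964 CPM (SD, n = 3) in control, 4921 ± 91.9 in model, 5386 ± 574 in Rhy and 4099 ± 529 in DXM colon. All 8 were lower in model than in control, with a median log2 fold change of -0.42, 2 of them at an unadjusted p under 0.05. The 7 mature colonocyte markers, among them Car1 and Guca2a, had a median of -1.05, with 6 lower (3 at an unadjusted p under 0.05) and Guca2b higher, and summed to 14329 to 25753 CPM in control and 8949 to 16689 in model libraries. The mean log2 CPM of the members minus that of the pan-epithelial markers was -0.04 ± 0.23 in control, -0.52 ± 0.15 in model, -0.19 ± 0.06 in Rhy and -0.57 ± 0.41 in DXM colon. Relative to the mature colonocyte markers it was -1.03 ± 0.15, -1.20 ± 0.12, -1.17 ± 0.21 and -1.21 ± 0.16, so that these 4 groups overlapped.

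**Figure D5:**
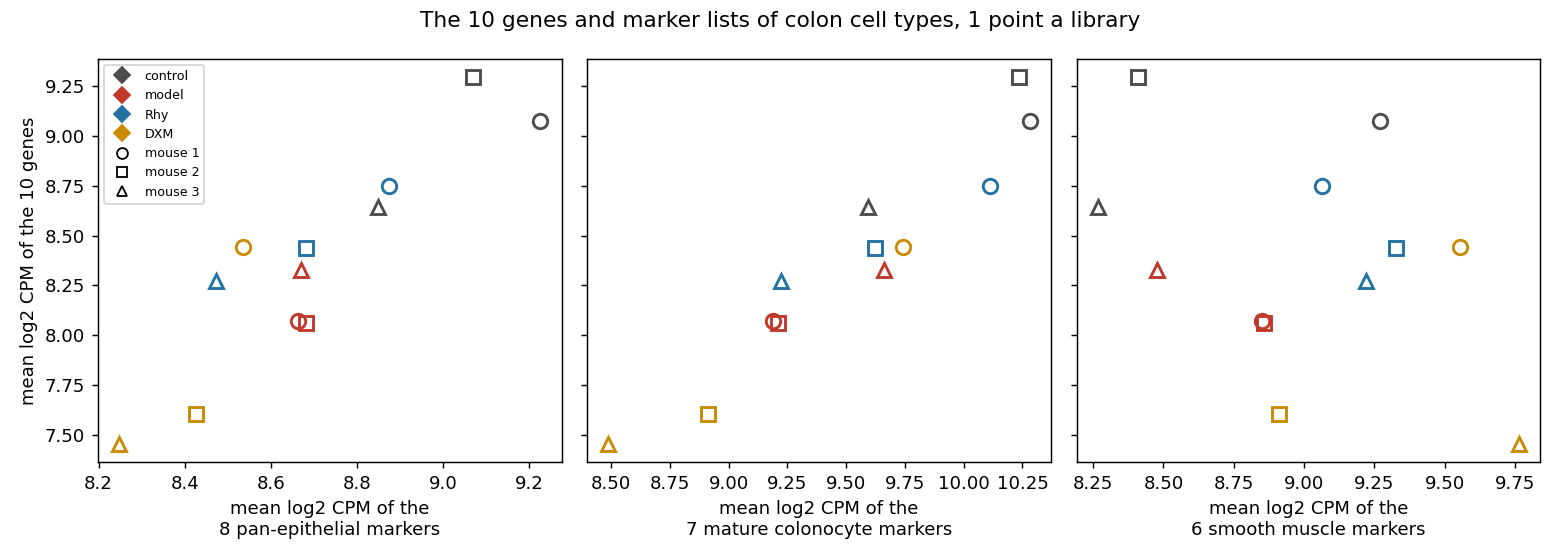
Mean log2 CPM of the 10 genes against that of the 8 pan-epithelial, 7 mature colonocyte and 6 smooth muscle markers, 1 point per library, with colours for groups and symbols for mice. The points of the first 2 panels run from DXM mice 2 and 3 at the lower left to control mice 1 and 2 at the upper right, and in the smooth muscle panel DXM mouse 3 has the highest marker level and the lowest level of the 10 genes.

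When libraries were scaled to the pan-epithelial markers in place of TMM, the model against control median of the members was -0.51, with all genes tested at 0.38. Scaled to the mature colonocyte markers it was -0.18, with all genes at 0.67, and Vil1, Ezr and Ush1c were then higher in model than in control (0.09, 0.26 and 0.26). Rhy against model stayed at 0.41 on the pan-epithelial scale and was 0.14 on the colonocyte scale, where all 4 adhesion complex genes were under 0. DXM against model was -0.02 and -0.03 on these scales. Markers of other cells were measured beside these: the 6 smooth muscle markers, among them Actg2 and Acta2, summed to 3127 to 6059 CPM in control, 3519 to 4583 in model, 5443 to 6319 in Rhy and 4877 to 8811 in DXM libraries, and the 5 fibroblast markers, among them Dcn and Col1a1, to 302 to 493, 275 to 299, 178 to 816 and 479 to 955. The 6 leukocyte markers, among them Lyz2 and Cd79a, summed to 109 to 278, 217 to 230, 50.1 to 338 and 260 to 574 CPM. In DXM against model, all 5 fibroblast markers were higher, 4 of them at an unadjusted p under 0.05. So were all 6 smooth muscle markers (2 at that limit) and 4 of 6 leukocyte markers (2 at that limit). Of all genes, 4.89% were higher at that limit. In Rhy against model, all 6 smooth muscle markers (1 at that limit), 4 of 5 fibroblast markers (2) and 3 of 6 leukocyte markers (none) were higher, beside 1.74% of all genes at that limit. The neutrophil marker S100a8 was near the floor in all groups, with 0 counts in model mouse 3 and Rhy mouse 1. Its mean was 1.69 CPM in control, 0.0993 in model, 0.252 in Rhy and 2.08 in DXM colon. The part of these shares of cells in the values of the members was not tested.

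Other genes of the microvillus and its surroundings were taken from lists written from general knowledge. Earlier results of these data were known when the lists were chosen, so their counts are given as a description. Of the remaining partners of the adhesion complex, Anks4b, a scaffold that binds Ush1c and Myo7b, had a log2 fold change of -1.03 (SE 0.31) for model against control, and Calml4, a light chain of Myo7b, -0.24 (SE 0.26). Anks4b was separated between the groups and Calml4 overlapped. For Rhy against model the pair had 0.42 (SE 0.31) and 0.16 (SE 0.25), and for DXM against model -0.36 (SE 0.31) and -0.27 (SE 0.26). Among 11 other microvillar actin regulators, 10 were lower and 1 higher in model than in control, 4 of them lower at an unadjusted p under 0.05, with a median of -0.40. The most abundant of these were Misp, an actin-bundling protein of the microvillar rootlets, at -0.38 (SE 0.25), and the Eps8 paralog Eps8l3 at -1.16 (SE 0.34). The same list had 9 higher and 2 lower in Rhy against model, none at that limit, and 2 higher and 9 lower in DXM against model, 1 of them at that limit.

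Of the ezrin scaffolds and kinases, 4 of 5 were tested (Pdzk1 did not pass the filter) and all 4 were lower in model than in control, 2 of them at an unadjusted p under 0.05. They were Slc9a3r1, the NHERF1 scaffold that binds ezrin, at -1.10 (SE 0.36) and Stk10, a kinase that activates ERM proteins, at -1.26 (SE 0.36). The terminal web, into which microvilli are rooted, had 7 of 9 genes lower and 2 higher, with a median of -0.17 and 2 genes lower at that limit. Its most abundant genes, the keratins Krt8 and Krt19, had -0.35 (SE 0.26) and -0.04 (SE 0.28). The 2 at that limit, named after their values were seen, were Myh14 at -0.73 (SE 0.32) and the keratin of differentiated epithelium Krt20 at -0.94 (SE 0.40). Apical trafficking genes, needed to deliver brush border proteins, had 6 of 7 lower, 1 of them at that limit, with a median of -0.16. Rab11a and Rab8a were at -0.09 (SE 0.20) and -0.05 (SE 0.17). Among 8 paralogs that serve the same functions mainly in other cells, 4 were higher, none at that limit, and 4 lower, 2 of them at that limit. Moesin (Msn) was at 0.08 (SE 0.36) and the villin relative Scin at -0.92 (SE 0.36). In DXM against model Msn was 0.57 (SE 0.36), with every DXM library above every model library, while Ezr was -0.04 (SE 0.23). Of 7 transcription factors of intestinal epithelium, 6 were lower in model than in control colon, 1 of them at that limit, and Cdx1 was higher. The most abundant were Cdx1 at 0.47 (SE 0.27) and Klf4 at -0.39 (SE 0.26). For Rhy against model the medians were 0.38 for the ezrin scaffolds and kinases, 0.28 for the terminal web, 0.17 for apical trafficking, 0.12 for the paralogs and 0.12 for the transcription factors, with no gene of these lists at an unadjusted p under 0.05. For DXM against model they were -0.11, -0.21, -0.03, 0.44 and -0.35, with 1 transcription factor, lower, at that limit.

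Across the 12 libraries the 10 genes varied together to different degrees. Pearson's r between pairs of members on log2 CPM had a median of 0.86 and ranged from 0.44 (Ezr with Ush1c) to 0.98 (Cdhr2 with Myo7b). Against the mean of the other 9 members, Vil1 and Myo7b had the highest r (0.96 each) and Ezr the lowest (0.70), followed by Ush1c (0.80). The 6 other genes most like the mean pattern of the 10 were Slc9a3r1 and Ptprh, a receptor tyrosine phosphatase (0.99 each), and Mapk6, a kinase, Arfgap3, a regulator of Golgi transport, Klc4, a kinesin light chain, and Myh14, a non-muscle myosin of the terminal web (0.97 each). These correlations are over libraries that share group differences, cell makeup and scaling, and are given without a p. The members were chosen in part by their fold changes between these libraries, so some likeness among them follows from that choice. The mean standardized level of the 10 was 1.25, 1.54 and 0.39 in control mice 1 to 3, -0.53, -0.55 and -0.11 in model mice, 0.63, 0.20 and -0.06 in Rhy mice and 0.08, -1.31 and -1.53 in DXM mice.

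Hoxb13, which marks the distal colon, was uneven between the groups, since 1 library each of the control, model and Rhy groups and none of the DXM group had it under 5 CPM. The position of the pieces along the colon is not given in the labels, and its part in the values was not tested. Control mouse 3, one of the 3, was the lowest control library in 9 of the 10 genes, and Rhy mouse 1, another, was the highest Rhy library in 6 of them. Model mouse 3 was the highest model library in 8 of them, all but Ezr and Eps8. Over the 9 libraries with Hoxb13 above 5 CPM, the median log2 fold change was -1.17 for model against control, 0.42 for Rhy against model and -0.12 for DXM against model. On these libraries Cdhr5 and Ush1c turned to -0.02 and -0.12 in Rhy against model. Some reads may belong to overlapping genes, since the use of strand in counting is not given in the sources used here. Usp37 overlaps Vil1 on the other strand and had at most 1057 reads, and Sytl3, which overlaps Ezr, at most 52. Gm9860, which overlaps Ush1c, had at most 100 reads, where Ush1c had 2451 or more. Genes that overlap Eps8 and Myo7b had at most 4.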

How the data were processed

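RNA-Seq was performed on colonic tissue of 12 mice, 3 in each of 4 groups. The authors deposited counts, whole numbers of reads per gene without normalization, and FPKM values made from the same counts by gene length and library size. The submitters' processing notes name HISAT2 2.0.5, featureCounts 1.5.0-p3, DESeq2 1.16.1 and the build mm10. Whether strand was used is not given in the sources used here. Of the columns, 0 belonged to samples outside the sample list.

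The 54532 genes were filtered with edgeR's filterByExpr (minimum count 10), which left 16904. Groups were compared with edgeR 4.0.16 in R 4.3.3 (TMM scaling, glmQLFit and glmQLFTest, two-sided, all 12 libraries in 1 fit, Benjamini-Hochberg adjustment over all genes tested), with SE as fold change over the square root of F. Total counts of 14346478 to 17749716 gave each member 574 or more reads per library, so spread between mice, not counting error, limits precision. CPM carry no prior count, and log2 CPM a prior count of 2. FPKM served for levels between genes, shares and the limma alternatives. Groups were called apart where no library of one overlapped the other. The fit was tested on simulated counts.

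The members and gene lists were chosen with earlier results of these data known. Named are all 10 members, both adhesion complex partners and the 2 genes of highest mean FPKM in every other list. Also named are the 6 genes with the highest r with the members' mean standardized level. Guca2b, Myh14, Krt20, S100a8, Usp37, Sytl3 and Gm9860 were named after their values were seen. Alternatives were RLE and upper-quartile scaling, only the groups compared, a replicate block, genes with any count, DESeq2 1.42.0, limma 3.58.1, model 1 and 2 as 1 library, scaling to the pan-epithelial markers and each library left out. Scaling to colonocyte markers, DESeq2 on only the groups compared and libraries with Hoxb13 over 5 CPM were added after seeing the data. The DXM group is not among the groups of the study's RNA-Seq methods.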

Additional observations from a re-analysis of the deposited data

How the results depend on the processing

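Under 25 alternatives the log2 fold changes of single members changed sign in 3 of 250 values for model against control, 9 of 250 for Rhy against model and 17 of 250 for DXM against model. The changes of sign in model against control came from scaling to the mature colonocyte markers. That scaling gave medians of -0.18 for model against control, -0.064 for Rhy against control and -0.095 for DXM against control, and scaling to the pan-epithelial markers gave -0.51, -0.090 and -0.40. With only libraries of Hoxb13 over 5 CPM, Rhy against control had a median of -0.84. With 1 library left out, the median ranged from -1.12 to -0.66 for model against control, 0.23 to 0.52 for Rhy against model, -0.64 to -0.068 for DXM against model, -0.66 to -0.32 for Rhy against control and -1.39 to -0.81 for DXM against control.

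The number of genes at an adjusted p under 0.05 was 0 in each comparison. For model against control it became 1 with genes of any count, 1 with only the groups compared and 1 with colonocyte scaling. It was 46 with DESeq2 and 167 with DESeq2 on the groups compared. For Rhy against model the number became 5 and 44 with these DESeq2 fits and 2 with limma on log2(FPKM + 0.1). For DXM against model it became 51, 590 and 2, and 2 with only the groups compared and 2 with Hoxb13 over 5 CPM. With 1 library left out these numbers ranged from 0 to 1, from 0 to 1 and from 0 to 0. Genes at an unadjusted p under 0.05 (1626, 628 and 1300) ranged with 1 library left out from 888 to 2811, 289 to 1066 and 537 to 1834. With model 1 and 2 as 1 library they were 866, 283 and 736, with pan-epithelial scaling 3045 for model against control and 2017 for DXM against model, with colonocyte scaling 2463 for model against control, and with Hoxb13 over 5 CPM 2686 for model against control and 1453 for Rhy against model. DESeq2 on the groups compared gave 1021 for Rhy against model and 2644 for DXM against model, genes with any count 972 for Rhy against model, and only the groups compared 2514 for DXM against model. The cause of these shifts was not tested.

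Deviations from the group means in libraries with the same number in different groups had correlations of -0.31 to 0.36 over 18 pairs, 6 above 0.1. Pairs with different numbers were not set beside them. The labels name no pairing, and the numbers were not taken as pairs. With a replicate block the medians were -0.85, 0.35 and -0.39 for the 3 comparisons and -0.48 and -1.05 for Rhy and DXM against control, 0 genes passed an adjusted p of 0.05 in any, and 1820, 626 and 1244 genes had an unadjusted p under 0.05.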
